A study of Mus musculus with 6 samples.

Results

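The early growth response genes Egr1, Egr2 and Egr3, their corepressors Nab1 and Nab2, and the orphan nuclear receptor genes Nr4a1, Nr4a2 and Nr4a3 were followed in mouse T cells exposed to fine particulate matter. These 8 genes were chosen by their symbols from the 34745 genes of the deposited expression table, and each symbol matched 1 gene. The PM2.5 group held 3 libraries of cells that received a suspension of airborne particles under 2.5 micrometres at 100 µg/ml after 6 h of stimulation, and the control group held 3 libraries of cells that received PBS. Both groups were naive CD4 T cells of female C57BL/6 mice, 6 weeks old, taken from the spleen and stimulated for 4 days through CD3 and CD28. To drive Th17 differentiation every culture also received TGF-beta, IL-6, IL-2 and IL-23, while IL-4 and IFN-gamma were blocked by antibodies. The comparison asks how the transcripts of such cells differ when the particles are present. Whether replicates came from different cultures or mice is not stated in the labels, and the p-values reflect just the spread among these samples, which may be technical.

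Egr and Nr4a genes are induced within the first hours after a T cell receptor is engaged. The Egr proteins are zinc finger factors that bind GC-rich sites. Egr1 responds mainly to the ERK branch of the signal, and Egr2 and Egr3 are known for restraining T cells and for their part in anergy. Nab1 and Nab2 bind Egr proteins and repress their targets with the help of the chromatin remodelling complex NuRD, and Nab2 is itself an Egr target. The Nr4a proteins bind DNA without a known natural ligand, respond mainly to calcium signals, and act in negative selection, regulatory T cells and T cell exhaustion. Nr4a1, also called Nur77, is widely used as a readout of receptor signal strength.

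The families split. Of the 8 genes, 3 were higher and 4 were lower in the PM2.5 group by the edgeR quasi-likelihood test, with p adjusted by Benjamini-Hochberg over the 12967 genes tested (adjusted p under 0.05), and Egr2 did not pass. Egr3 fell 13.4-fold, Egr1 3.13-fold, Nr4a1 2.23-fold and Nab1 1.82-fold, whereas Nr4a3 rose 4.00-fold, Nr4a2 2.07-fold and Nab2 1.38-fold. These counts stand against a wide background: 35.2% of all genes tested were called higher and 35.3% lower, 70.6% together, and 7 calls among 8 genes are not a result about this set. Of the genes tested, 6.51% were called higher and 12.4% lower with a change of at least 2-fold, and 2 and 3 of the 8 genes met these criteria. The groups did not overlap for 7 of the 8 genes, against 74.9% of all genes tested. Without PBS replicate 2, in which Egr2 stood apart, 5 of the 8 genes were lower and 3 higher, and without PM2.5 replicate 3, in which Nr4a3 stood apart, 4 were lower and 3 higher.

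**Figure D1:**
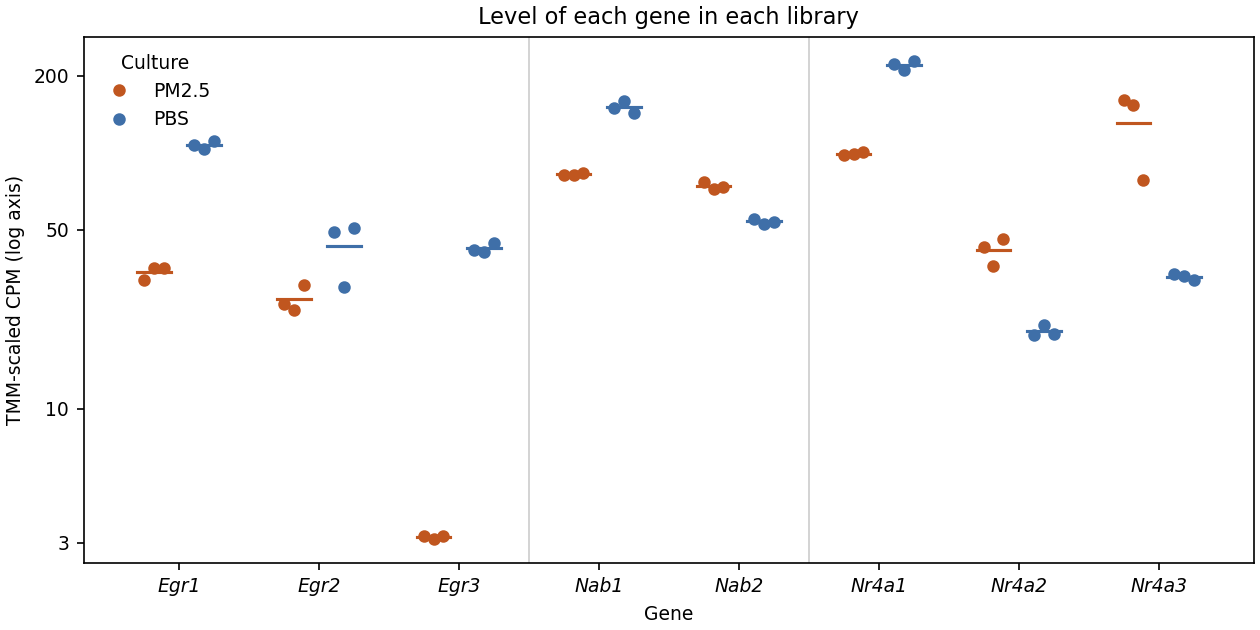
TMM-scaled CPM (log axis) of each of the 8 genes, with 1 point for each library, PM2.5 to the left of PBS, and a line at each group's mean. Egr1, Egr3, Nab1 and Nr4a1 lie lower in every PM2.5 library, Nab2, Nr4a2 and Nr4a3 lie higher in every PM2.5 library, and the groups overlap for Egr2.

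Library totals were 25397965 to 27215853 counts in the PM2.5 group and 19511561 to 22353131 counts in the PBS group, so that every PM2.5 library was deeper. For a gene with 0 counts the upper limit in 1 library is 0.110 to 0.154 CPM, which corresponds to 3 counts and covers counting error only. CPM are counts per 1000000, of the library total for this limit and for the marker sums and of the TMM-scaled total everywhere else. The 10 CD4 T cell and Th17 markers were all detected and summed to 4853 to 5280 CPM in the PM2.5 group and 6045 to 6129 CPM in the PBS group, and 2 of them were called higher and 8 lower. Mean levels with PM2.5 were 423 CPM for Il17a and 1813 CPM for Il17f, and with PBS 464 CPM for Il17a and 2323 CPM for Il17f. Markers of other cells also moved with the group. Summed NK cell markers were 12.2 to 13.2 CPM in PM2.5 libraries and 41.8 to 53.0 CPM in PBS libraries, and CD8 and gamma-delta T cell markers 28.1 to 31.5 CPM in PM2.5 libraries and 75.0 to 77.6 CPM in PBS libraries. The NK sum came nearly all from Klrd1 (means 7.11 CPM with PM2.5 and 38.4 CPM with PBS) and Klrk1 (4.80 and 7.47 CPM). Eomes was higher with PM2.5 (0.973 and 0.0753 CPM). Of the CD8 and gamma-delta markers, 4 were called lower, and Cd8b1 was higher with PM2.5 (6.09 and 4.16 CPM). B cell markers summed to 40.9 to 41.8 CPM with PM2.5 and 74.3 to 80.4 CPM with PBS, nearly all from Ebf1, at 21.5 CPM with PM2.5 and 3.52 CPM with PBS, and Ighm, at 20.6 CPM with PM2.5 and 71.1 CPM with PBS (means). In PM2.5 libraries macrophage markers summed to 2.98 to 3.64 CPM, neutrophil markers to 0.551 to 0.689 CPM and dendritic cell markers to 2.56 to 3.50 CPM. In PBS libraries these sums were 5.19 to 6.41 CPM for macrophage, 5.28 to 6.27 CPM for neutrophil and 0.948 to 1.30 CPM for dendritic cell markers. Ly6g made up nearly all of the neutrophil sum (means 0.625 CPM with PM2.5 and 5.53 CPM with PBS), and Cd68 most of the macrophage sum (2.75 and 4.69 CPM). The dendritic cell sum came nearly all from Zbtb46 (2.68 and 0.455 CPM) and Itgax (0.234 and 0.533 CPM). The defining markers Ms4a1, Lyz2, S100a8, S100a9, Elane, Csf3r, Siglech, Clec9a, Ncr1 and Klra8 were listed at 0 in every library. The part of these other cells in the results was not tested. Because each library is RNA from a whole culture, fewer cells that express a gene and less of its RNA per cell cannot be told apart.

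Stretches of DNA before the starts of 5 of the genes, from RefSeq (GRCm38.p6), are shown. The upstream regions of these 5 genes share a short motif, the core of the cAMP response element (CRE). Among them Nr4a1 and Nab1 fell and Nr4a2 and Nr4a3 rose, while the change of Egr2 did not pass. The CRE core of Nab1 is not contained in the stretches shown for that gene. Capitals mark matches on either strand to the CRE core TGACG or, in the Egr2 stretch, also to the CArG box bound by serum response factor, and in the Nab1 stretches to the EGR site GCGTGGGCG.
Egr2, chr10:67537748-67537828, plus strand: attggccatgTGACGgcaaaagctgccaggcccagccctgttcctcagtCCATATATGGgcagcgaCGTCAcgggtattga
Nr4a1, chr15:101266603-101266820, plus strand: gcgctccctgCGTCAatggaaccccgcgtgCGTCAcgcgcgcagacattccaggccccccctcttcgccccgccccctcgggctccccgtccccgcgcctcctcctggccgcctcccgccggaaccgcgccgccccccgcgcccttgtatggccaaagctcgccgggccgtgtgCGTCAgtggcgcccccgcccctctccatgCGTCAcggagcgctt
Nr4a2, chr2:57124100-57124213, minus strand: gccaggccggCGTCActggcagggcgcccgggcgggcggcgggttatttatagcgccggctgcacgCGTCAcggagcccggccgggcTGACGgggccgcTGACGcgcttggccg
Nr4a3, chr4:48045064-48045114, plus strand: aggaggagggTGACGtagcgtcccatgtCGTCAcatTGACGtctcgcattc
Nab1, chr1:52500571-52500599, minus strand: gccccgcggcCGCCCACGCcgggatctgc
Nab1, chr1:52500539-52500567, minus strand: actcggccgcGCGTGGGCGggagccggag

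Windows of 250 bases before a RefSeq start were found for 6 of the 8 genes. Nr4a1, Nr4a2 and Nr4a3 each held 4 matches to the CRE core in this window. Of all 32851 promoter windows, 0.137% held at least 4 and 17.8% held at least 1. The limit of 4 was taken from the Nr4a genes, whose own windows are counted in that share. The windows were not matched for base composition. Of the 4 matches in the Nr4a3 window, 3 are shown, since the other lies within an annotated exon. Thus the receptor gene that fell in PM2.5 cultures and the receptor genes that rose carry the same number of these letters, and the match is a description of the window, not of binding. RefSeq lists 5 starts for Egr2, and the stretch shown, with 2 CRE cores and a CArG box, lies in 3 of their windows. A CArG box, which 1.47% of windows contain, was also found in 1 further window of Egr2, and the other window held no match. The window of Nab1 held 2 EGR sites, both within an annotated exon, where 0.536% of windows held at least 1, and 1 CRE core, while the window of Nab2 held none of the motifs searched. The full CRE TGACGTCA, the AP-1 site TGANTCA, the Nr4a site NBRE (AAAGGTCA) and the MEF2 site were searched on both strands and were not found in any of the windows of these genes. They occur in 1.55%, 6.75%, 1.34% and 0.508% of all windows. Each full CRE also counts as CRE cores, which it contains on both strands.

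Among the activators, Egr3 showed the largest change of the 8 genes. Egr3 (ENSMUSG00000033730, mm10 chromosome 14, 70077445 to 70080157, plus strand), which limits T cell activation together with Egr2, had 3.19, 3.10 and 3.18 CPM in the PM2.5 libraries and 41.8, 41.1 and 44.5 CPM in the PBS libraries. The 2 ranges lie far apart, and the PM2.5 values rest on 79 to 85 counts per library. Its log2 fold change of -3.75 (SE 0.07, adjusted p = 3.19e-11) ranked 62 by size among the 6543 genes with a negative value.

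Egr1 (ENSMUSG00000038418, chromosome 18, 34859823 to 34864984, plus strand), the founding member of the family and a fast target of ERK signalling, stood at 31.8, 35.5 and 35.5 CPM with PM2.5 and at 107, 103 and 111 CPM with PBS. Every PM2.5 library was below every control library. Egr1 changed by -1.65 on the log2 scale (SE 0.05, adjusted p = 1.31e-09), less than Egr3.

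Egr2 (ENSMUSG00000037868, chromosome 10, 67535475 to 67542188, plus strand), a regulator of anergy genes, had 25.7, 24.2 and 30.5 CPM in PM2.5 cultures and 49.2, 30.0 and 50.6 CPM in PBS cultures. PBS replicate 2 lay within the range of the PM2.5 group, so the groups overlapped. The log2 fold change of -0.69 (SE 0.24, 1.62-fold) did not pass (adjusted p = 0.0553, between 1.03e-04 and 0.160 in the alternatives). Without PBS replicate 2 it was -0.90 and passed (adjusted p = 1.03e-04), as it did with library totals as scaling (0.0440), with DESeq2 (0.0120), with limma on FPKM (0.0176 and 0.0196) and with a minimum of 5 CPM (0.0357). In PBS replicate 2, Egr2 was at 0.609 of the lower of the other 2 control libraries, and 28 to 44 of 10189 genes showed as large a gap in each of the 6 libraries. The cause of such gaps was not tested.

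A further family member outside the 8 genes, Egr4, was hardly detected, with 3 to 7 counts in PM2.5 libraries and 10 or 11 in PBS libraries. Its mean was 0.183 CPM with PM2.5 and 0.492 CPM with PBS (log2 fold change -1.40, SE 0.43, adjusted p = 0.0137). Its adjusted p was 0.101 with DESeq2 and 0.0507 without PM2.5 replicate 2, which ended the call, and the alternatives ranged from 0.00269 to 0.101. The related zinc finger gene Wt1 was listed at 0 in every library.

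The corepressors moved in opposite directions. Nab1 (ENSMUSG00000002881, chromosome 1, 52457294 to 52500679, minus strand) was measured at 81.6, 82.2 and 83.4 CPM in the PM2.5 group and at 149, 159 and 143 CPM in the PBS group. Its groups did not overlap and the PM2.5 libraries differed by under 2 CPM. Nab1 changed by -0.86 on the log2 scale (SE 0.04, adjusted p = 2.95e-08).

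Nab2 (ENSMUSG00000025402, chromosome 10, 127660918 to 127668568, minus strand) had 76.8, 72.3 and 73.7 CPM with PM2.5 and 55.3, 52.9 and 53.6 CPM with PBS. All PM2.5 values lay above all control values, but the rise was the smallest change among the genes that passed (0.46 on the log2 scale, SE 0.04, adjusted p = 3.92e-06). Thus Nab2, which in other settings follows its Egr activators, was higher in the libraries where Egr1 and Egr3 were lower. GENCODE M21 places 2 expressed genes on the opposite strand over Nab2. Stat6, which relays IL-4 signals, overlaps it by 40 bases and averaged 396 ± 7.44 CPM in PM2.5 cultures and 306 ± 4.45 CPM in PBS cultures (SD, n = 3 each, log2 fold change 0.37). The nuclear membrane protein gene Nemp1, listed in the table as Tmem194, overlaps it by 1668 bases and averaged 106 ± 1.85 CPM with PM2.5 and 56.7 ± 1.80 CPM with PBS (log2 fold change 0.90). Since the strand setting of the counting is not given in the sources used here, part of the Nab2 counts may come from these genes, and their part in its rise was not tested.

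The receptor genes also split. Nr4a1 (ENSMUSG00000023034, chromosome 15, 101266846 to 101274792, plus strand) had 98.0, 98.7 and 101 CPM in PM2.5 cultures and 223, 211 and 229 CPM in PBS cultures. The PM2.5 values fell in a narrow range, well below the control values. Nr4a1 changed by -1.15 on the log2 scale (SE 0.04, adjusted p = 1.42e-09).

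Nr4a2 (ENSMUSG00000026826, chromosome 2, 57106830 to 57124003, minus strand), which encodes Nurr1 and is needed for dopamine neurons as well as being induced in T cells, was at 42.9, 36.1 and 46.1 CPM with PM2.5 and at 19.4, 21.3 and 19.6 CPM with PBS. The groups were separate, and the PM2.5 libraries varied more than the controls. Nr4a2 rose by 1.05 on the log2 scale (SE 0.09, adjusted p = 3.68e-06).

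Nr4a3 (ENSMUSG00000028341, chromosome 4, 48045153 to 48086447, plus strand), which encodes Nor1, reached 161, 154 and 78.6 CPM in the PM2.5 libraries, against 33.6, 33.1 and 31.8 CPM in the PBS libraries. PM2.5 replicate 3 was the low library, at 0.510 of the lower of the other 2, yet it lay above every control library. Nr4a3 rose by 2.00 on the log2 scale (SE 0.33, adjusted p = 0.00568), rank 225 by size among 6424 genes with a positive value. Without PM2.5 replicate 3 it was 2.27, and the adjusted p was 6.43e-10 (the alternatives gave 6.43e-10 to 0.0298). In each of the 6 libraries 16 to 29 of 10189 genes showed as large a gap below the other libraries of their group, and the cause was not tested. Nr4a2 was at its highest in that library, so the 2 receptor genes that rose did not share the gap.

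**Figure D2:**
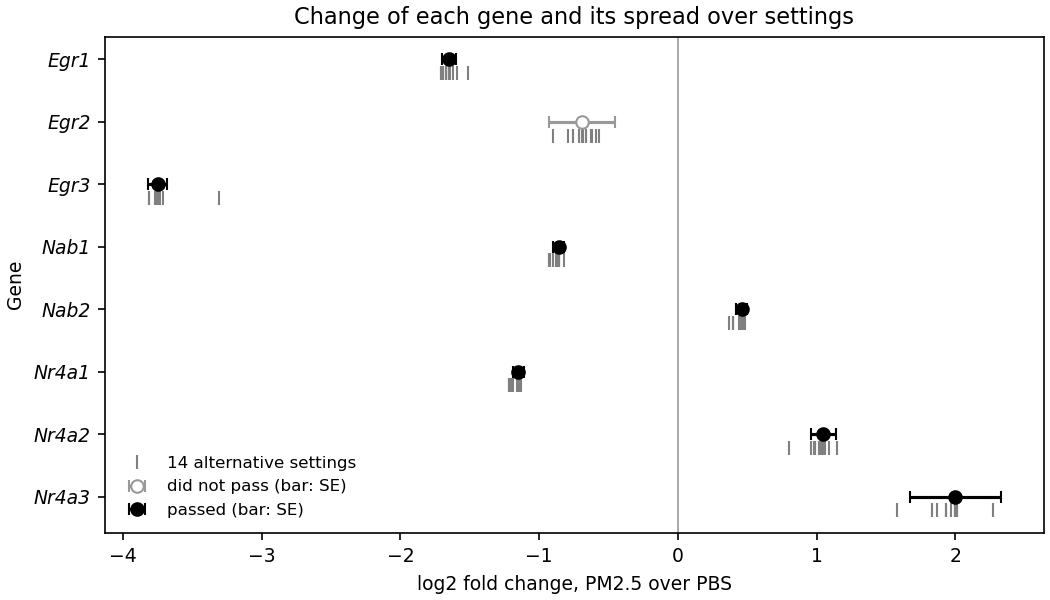
The log2 fold change of each gene, PM2.5 over PBS, with its SE as a bar (filled points passed an adjusted p of 0.05, the open point did not), and below each point a tick for each of the 14 alternative settings. No tick crosses 0 for any of the 8 genes, and the spread is widest for Nr4a3 (1.58 to 2.27) and Egr3 (-3.81 to -3.31).

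Levels of different genes were compared per length. The FPKM values of the deposited table use 1 fixed length per gene, which for Egr1 is 7520 bases, more than the 5162 bases of its locus and equal to the sum of its 2 transcripts in GENCODE M21. This length equalled the summed transcripts for 889 of 9520 genes, and levels were therefore also computed per kilobase of merged exons within each locus (merged-exon RPKM). The deposited Egr3 locus, 70077445 to 70080157, is shorter at both ends than the gene in GENCODE M21, 70077203 to 70082614. The deposited Nr4a1 locus starts at 101266846, whereas the gene in GENCODE M21 starts at 101254269. Reads from the parts outside these loci may not have been counted, since the annotation used for counting is not given.

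In PM2.5 cultures the order in merged-exon RPKM was Nr4a1 (29.4 ± 0.532), Nab2 (24.7 ± 0.768), Nr4a3 (21.4 ± 7.44), Nab1 (19.7 ± 0.223), Nr4a2 (10.0 ± 1.24), Egr2 (7.71 ± 0.954), Egr1 (7.47 ± 0.469) and Egr3 (1.81 ± 0.0315, SD, n = 3). The libraries of Nr4a3 overlapped those of Nab2 and Nab1, and those of Egr2 overlapped those of Nr4a2 and of Egr1. In PBS cultures the order was Nr4a1 (68.4 ± 3.18), Nab1 (37.4 ± 1.84), Egr3 (25.4 ± 1.22), Egr1 (24.4 ± 1.01), Nab2 (18.7 ± 0.460), Egr2 (13.0 ± 3.51), Nr4a3 (5.60 ± 0.138) and Nr4a2 (5.06 ± 0.244), and only Egr3 and Egr1 overlapped among neighbours. Nr4a1 was thus the most abundant of the 8 transcripts in both groups, while Egr3 stood last in PM2.5 cultures and behind only Nr4a1 and Nab1 in PBS cultures. By the FPKM of the table Nr4a1 was also first, with 39.3 ± 0.710 in PM2.5 and 91.4 ± 4.25 in PBS cultures, and Egr3 was last with PM2.5 and behind only Nr4a1 with PBS, with 2.18 ± 0.0380 in PM2.5 and 30.7 ± 1.47 in PBS cultures.

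The makeup of each family differed between the groups. In merged-exon RPKM, Egr3 made up 11.3, 10.8 and 9.93% of the summed Egr level in PM2.5 libraries and 39.0, 43.0 and 39.7% in PBS libraries, and Egr2 made up 45.8, 42.3 and 47.9% in PM2.5 libraries and 23.1, 15.8 and 22.6% in PBS libraries. The Egr sum itself was 17.0 ± 1.19 with PM2.5 and 62.9 ± 5.42 with PBS, a log2 ratio of -1.89, and -2.22 on the FPKM of the table. Nr4a1 held 44.2, 46.3 and 55.6% of the summed Nr4a level in PM2.5 libraries and 86.7, 85.6 and 87.2% in PBS libraries. Nr4a3 held 40.0, 39.9 and 23.8% with PM2.5 and 7.20, 7.39 and 6.67% with PBS. The summed Nr4a level differed less than its members did, at 60.9 ± 6.11 with PM2.5 and 79.1 ± 2.91 with PBS, a log2 ratio of -0.38 that was -0.77 on the FPKM of the table. Nab2 was the larger part of the Nab sum in PM2.5 libraries (56.7, 55.1 and 55.2%) and the smaller part in PBS libraries (34.2, 31.7 and 34.4%). The ratio of the Egr sum to the Nab sum was 0.359, 0.377 and 0.413 in PM2.5 libraries and 1.14, 0.988 and 1.24 in PBS libraries. On both length scales the groups did not overlap in any of these shares, though for Egr1 the merged-exon shares of 42.2 to 47.0% with PM2.5 and 37.7 to 41.2% with PBS lay close together.

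**Figure D3:**
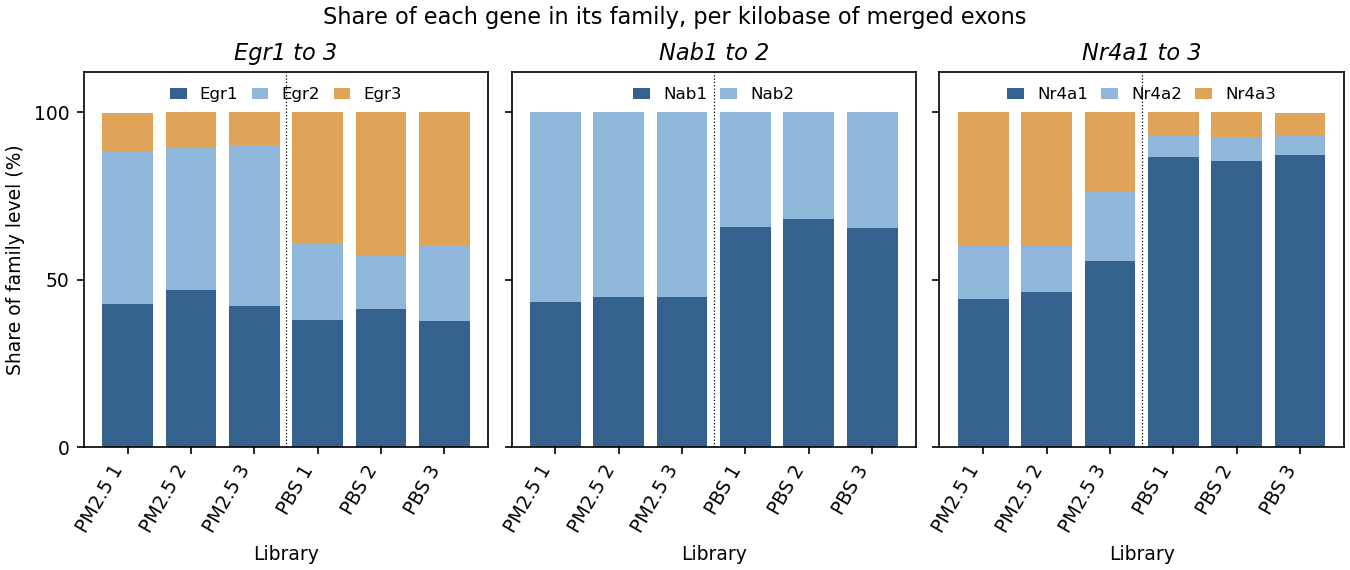
Stacked bars give the share (%) of each gene in the summed merged-exon RPKM of its family, 1 bar for each library, PM2.5 to the left of PBS and no error bars since each bar is 1 library. Egr3 makes up 10.7% of the Egr sum in PM2.5 cultures and 40.6% in PBS cultures, and Nr4a3 34.6% of the Nr4a sum in PM2.5 cultures and 7.09% in PBS cultures (means).

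The genes with the pattern most like each gene that changed at least 2-fold were sought among 9542 genes (no predicted models, pseudogenes, small RNAs or receptor segments) whose mean reached 5 CPM in either group, by the root mean square difference of log2 CPM centred on each gene's mean over the 6 libraries. For Egr3 they were Apol9b (0.0622) and Cd101, which encodes an inhibitory surface protein (0.0871, 23.5 ± 1.80 CPM with PM2.5 and 297 ± 8.61 CPM with PBS). For Nr4a1 the closest was Bcl11b, a T cell identity factor (0.0131, 149 ± 3.07 CPM with PM2.5 and 334 ± 13.3 CPM with PBS), followed by Plekhg2 (0.0265). Jrkl (0.0346) and the receptor activity modifying protein gene Ramp1 (0.0396) were nearest to Egr1. Hist1h1c, a linker histone gene (0.0610), and Surf6 (0.0692) were nearest to Nr4a2. Nr4a3 had no close match, with Crtam (0.283) and Ckap4 (0.303) the nearest. With only 2 groups, genes of like fold change have small distances.

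The signalling genes that feed the Egr and Nr4a promoters moved both ways. Of 35 listed genes, all tested, 15 rose and 12 fell, while 8 did not pass. The balance turned with library totals in place of TMM scaling (11 higher and 14 lower), with limma on FPKM (10 higher and 12 lower at either pseudocount) and with a minimum of 5 CPM (11 higher and 12 lower). The median log2 fold change was 0.00, against -0.01 over all genes tested, of which 35.2% were called higher and 35.3% lower. The phospholipase Plcg1, which links the receptor to calcium and to the Ras pathway, had 116, 116 and 121 CPM with PM2.5 and 557, 514 and 551 CPM with PBS (-2.20, SE 0.04, adjusted p = 1.88e-11). Elk3, a partner of serum response factor, fell (-1.22). Named after their values were seen, Nfatc2, a calcium-driven factor (-2.29), Srf, which encodes serum response factor itself (-0.75), its partner Elk1 (-0.72) and the adaptor Lat (-0.99) also fell, while the calcium-driven factors Nfatc1 (0.19) and Nfatc3 (0.20) rose.

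Other immediate early genes moved both ways. Of 22 such genes 14 rose, 6 fell and 2 did not pass (median 0.53). Over all genes tested 35.2% were called higher and 35.3% lower (median -0.01). The activation marker Cd69 had 501, 484 and 479 CPM in PM2.5 cultures and 80.7, 86.1 and 79.3 CPM in PBS cultures (2.57, SE 0.04, adjusted p = 9.06e-12). Jun, a subunit of AP-1 (-1.17), and Zfp36, which encodes an RNA-decay factor (-0.97), fell. Chosen after their values were seen, the stress factor Atf3 (3.69), the ERK phosphatase Dusp5 (1.36), Ier3 (1.30) and Fosb (1.09) rose, and Fos, the AP-1 partner of Jun, was at 8.38 ± 0.530 CPM with PM2.5 and 5.49 ± 0.490 CPM with PBS (0.61, adjusted p = 3.99e-04).

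Genes reported as Egr targets in T cells, 23 in all, held 12 that rose, 7 that fell and 4 that did not pass (median 0.39). Ndrg1, linked to anergy, had 421, 401 and 431 CPM with PM2.5 and 18.7, 18.4 and 17.2 CPM with PBS (4.53, SE 0.05, adjusted p = 2.66e-12), and the costimulatory receptor Tnfrsf9 rose (1.70). The cytokine signalling inhibitor Socs3 fell (-3.32, 17.0 ± 0.388 CPM with PM2.5 and 169 ± 1.12 CPM with PBS). Named after their values were seen, the ubiquitin ligase Cblb, an Egr2 and Egr3 target in anergy, rose (0.88), and the lipid kinase Dgka, an Egr2 target, fell (-0.66). Of 19 reported Nr4a targets 7 rose, 10 fell and 2 did not pass (median -0.44). The counts of both target lists stand against 35.2% higher and 35.3% lower over all genes tested (median -0.01). Ctla4, an inhibitory receptor (1.69), and the transcription factor Irf4 (1.31) rose, and Nt5e, which encodes CD73, fell (-1.38, 269 ± 1.26 CPM with PM2.5 and 702 ± 10.4 CPM with PBS). The lists of targets share 4 genes, and both hold genes that are activated and genes that are repressed.

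Of 13 NuRD subunit genes 2 rose, 4 fell and 7 did not pass (median -0.15), against 35.2% higher and 35.3% lower over all genes tested. The remodelling enzyme Chd4, which Nab proteins recruit, rose (0.41, 1385 ± 6.69 CPM with PM2.5 and 1043 ± 9.45 CPM with PBS), and its relative Chd3 (-0.81) and the deacetylase Hdac1 (-0.55) fell. The retinoid X receptors, with which Nr4a1 and Nr4a2 can pair, were higher: Rxra had 47.5, 47.6 and 47.2 CPM in PM2.5 cultures and 20.7, 19.7 and 19.3 CPM in PBS cultures (1.25, SE 0.05, adjusted p = 8.03e-09). Rxrb rose by 0.35 on the log2 scale (adjusted p = 0.00140), and Rxrg was listed at 0 in every library.

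**Figure D4:**
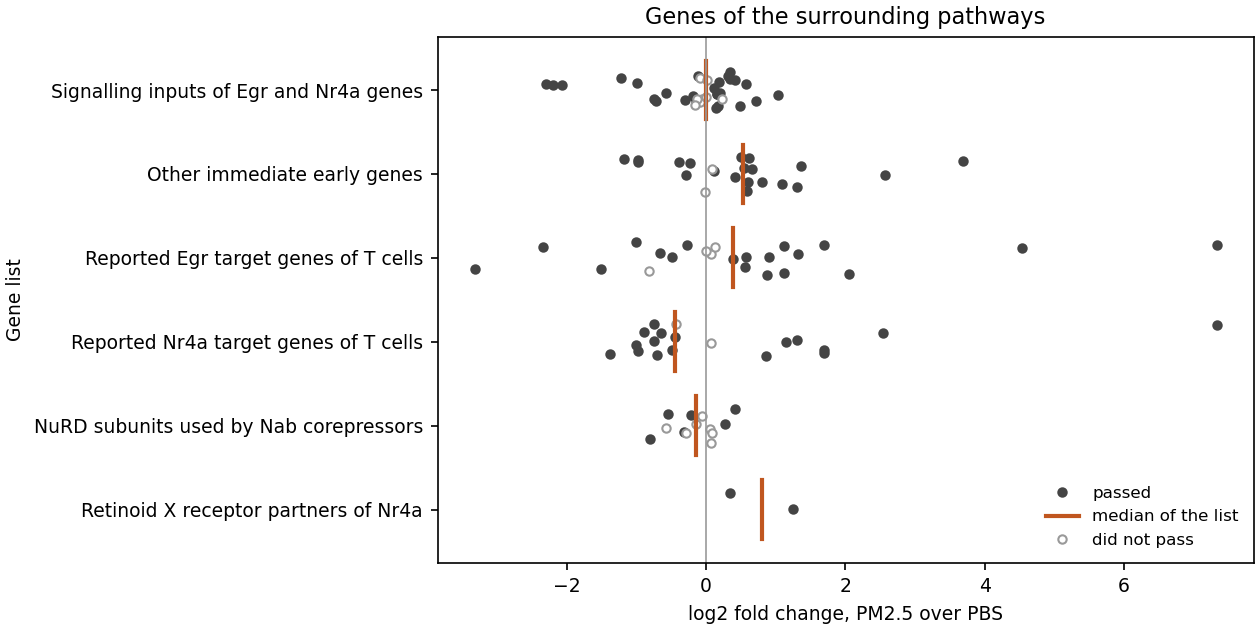
The log2 fold change of every tested gene of the 6 surrounding lists with at least 2 tested genes, PM2.5 over PBS, with filled points for genes that passed an adjusted p of 0.05, open points for those that did not and a bar at each list's median; vertical scatter within a list has no meaning. Each of the first 5 lists holds genes on both sides of 0, and the medians run from -0.44 to 0.80.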

How the data were processed

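Total RNA of mouse CD4 T cells was sequenced in 3 PM2.5 and 3 PBS libraries. The authors deposited raw counts and FPKM per Ensembl gene, per the file headers. The submitters' processing notes name TopHat2 2.0.6 and mm10. How reads were counted, with which annotation and strand setting, is not given in the sources used here. For the 9540 genes with over 100 counts in every library, the deposited FPKM equal the count over the library total and 1 length per gene, within 0.000856%. That length exceeded the locus for 7.96% of these genes.

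Genes passing edgeR's filterByExpr (minimum count 10, minimum total 15) were tested in edgeR 4.0.16 (R 4.3.3) with TMM scaling, robust glmQLFit and the quasi-likelihood F test (two-sided) on the 6 libraries, leaving 12967 genes with 99.9% of the counts. The biological coefficient of variation common to all genes was 8.17%. An SE is the size of the log2 fold change divided by the root of its F. Simulated counts for this comparison gave every gene the common variation. Of 12818 genes tested there, 100 were changed by 1 and 97 by 2 on the log2 scale. Of these changes 97% and 100% were recovered, and 0.103% of unchanged genes were called. In the real data 70.6% of genes were called and some had 1 library apart, so these rates may not hold there. Replicates of a group differed by more than counting error (chi-square per degree of freedom of 7.57 to 9.89). Alternatives used DESeq2 1.42.0, other scalings and filters, limma 3.58.1 on log2(FPKM + 1) and log2(FPKM + 0.1), a replicate block and leaving out each library.

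The genes and lists were chosen with earlier results of these data known. From each list the text names the 3 genes with the smallest adjusted p that passed, provided the mean was at least 5 CPM in 1 group and the groups did not overlap, and names lists of under 4 genes whole. Il17a and Il17f check the labelled cells, and other genes named are marked in the text. Some genes that this rule names are not reported here. Sequences come from RefSeq, GRCm38.p6.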

Additional observations from a re-analysis of the deposited data

How the results depend on the processing

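Each of the 7 genes that passed kept its direction and its call in all 14 alternatives, with 3 genes higher in each and 4 or 5 lower. Egr2 kept its direction in all 14 and its log2 fold change passed in 7: -0.691 with DESeq2, -0.758 with library totals, -0.759 with a minimum of 5 CPM, -0.664 with the replicate block (adjusted p = 0.0105), -0.624 and -0.711 by limma on log2(FPKM + 1) and log2(FPKM + 0.1), and -0.898 without PBS replicate 2, over a range of -0.898 to -0.569 when single libraries were left out. Deviations from the group means of same-numbered libraries correlated at 0.0134, 0.00720 and 0.0450, and those of differently numbered libraries at -0.0374 to 0.0235. Such low values over all genes cannot show whether the replicate numbers pair the samples. The block changed no other call among the 8 genes. The single tested Egr relative outside the 8 genes, Egr4, gave 0 calls with DESeq2 and with a minimum of 5 CPM, which removed it, and 0 or 1 when single libraries were left out. The log2 ratio of the summed FPKM was -2.22 for Egr1 to Egr3 and -1.89 per kilobase of merged exons. It was -0.77 for Nr4a1 to Nr4a3 and -0.378 per kilobase of merged exons, an alternative chosen after seeing the data. For Nab1 and Nab2 it was -0.36, and -0.298 with TMM factors. Library totals in place of TMM moved the median of all genes to -0.072. Calls over all genes numbered 7342 to 9582. Egr3 rests on 79 to 85 counts and Egr4 on 3 to 7 counts in PM2.5 libraries, which limits their precision. Il17f, printed as a check of the cells, lost its call in 6 alternatives.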

Other observations

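Besides Nr4a3, 16 genes had a ratio of PM2.5 replicate 3 to the lower of the other 2 PM2.5 libraries as low as that of Nr4a3 (0.51). Of these, Rcan1 was named after its values were seen because it encodes a regulator of calcineurin and is a target of calcium signals. It had 24.1, 23.5 and 10.4 CPM in PM2.5 cultures and 33.2, 32.4 and 31.9 CPM in PBS cultures. The log2 fold change of Rcan1 was -0.75 and did not pass (edgeR, adjusted p = 0.124). A link between Rcan1 or calcium signals and the low Nr4a3 value was not tested. None of the 16 genes belonged to the lists used here. Besides Egr2, 31 genes had a ratio of PBS replicate 2 to the lower of the other 2 PBS libraries as low as that of Egr2 (0.609). Of these, the NuRD subunit gene Gatad2b was the member of the lists used here. It was at 88.0 ± 3.35 CPM with PM2.5 and 131 ± 45.3 CPM with PBS (SD, n = 3 each).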
